A study of Mus musculus with 12 samples.

Results

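The 10 genes described here encode the proteins that load calcium into the endoplasmic reticulum (ER) and Golgi, release it from the ER, sense its loss from that store and pump it out across the plasma membrane. They were chosen by name as Atp2a2, Atp2a3, Atp2b1, Atp2b4, Atp2c1, Itpr1, Itpr2, Itpr3, Ryr2 and Stim1, and all 10 were found among the 24421 gene symbols counted in each library. All 10 also passed the filter on low counts that left 13102 genes for testing. RNA was sequenced from Min6, a mouse insulinoma line that makes and secretes insulin and is used as a beta-cell model. One group of 6 libraries came from cells infected with a control hairpin adenovirus (sh-ctrl), and the other group of 6 from cells infected with an adenovirus carrying a hairpin against Il22ra1 (sh-Il22ra1). The cells of both groups were wild type by label, carried virus for 48 h and received 0.3 mM palmitate, abbreviated PA in the labels, for 24 h. The comparison addressed how IL22RA1, a subunit of the interleukin-22 receptor, shapes transcription in palmitate-treated beta cells; uninfected cells and cells without palmitate were not analysed here.

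A beta cell keeps cytosolic calcium low with ATP-driven pumps, and insulin granules fuse when calcium rises. SERCA pumps (Atp2a genes) refill the ER and PMCA pumps (Atp2b genes) export calcium from the cell, while the SPCA pump (Atp2c1) fills the Golgi. The ER gives calcium back through IP3 receptors (Itpr genes), which open on inositol trisphosphate after receptor stimulation, and through ryanodine receptors such as Ryr2. When the ER runs low, Stim1 in its membrane opens ORAI channels at the cell surface.

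The ER pump genes Atp2a2 and Atp2a3 and the Golgi pump gene Atp2c1 were higher in sh-Il22ra1, and the release channel genes Itpr3 and Ryr2 and the plasma-membrane pump gene Atp2b4 were lower. At a Benjamini-Hochberg adjusted p under 0.05 in edgeR's quasi-likelihood test, 3 members rose (Atp2a2, Atp2a3 and Atp2c1), 3 fell (Atp2b4, Itpr3 and Ryr2) and 4 did not pass (Atp2b1, Itpr1, Itpr2 and Stim1). The calls of Atp2a2 and Atp2c1 ended when 2 control libraries that stood apart were left out, as given for each gene. Of all tested genes, 51.9% passed in either direction, 25.4% higher and 26.5% lower, so a call in 6 of 10 members lies near the background. The median log2 fold change of the members was -0.13, against -0.0043 for all tested genes. In 3 members, Atp2a3, Atp2b4 and Ryr2, no sh-Il22ra1 library overlapped with any sh-ctrl library, and 28.1% of tested genes were separated in this way. The labels do not say whether libraries of a group came from separate cultures, so p-values measure the spread between these libraries, which may be technical.

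Reads in genes ranged from 13108494 to 15887448 per library. Il22ra1 itself had 74 reads over the sh-ctrl libraries (7 to 20 each) and 15 over the sh-Il22ra1 libraries (1 to 4 each), and the exact permutation test, run two-sided, gave p = 0.00216, the lowest that groups of 6 can reach (adjusted p = 0.00866 over 4 genes tested in this way). Cyb5r3, the cytochrome reductase gene of the series title, averaged 578 ± 43.1 CPM in sh-ctrl and 82.1 ± 5.41 CPM in sh-Il22ra1 (SD, n = 6), where CPM is reads per 1000000 gene reads after TMM scaling. All 10 beta-cell markers were detected, with a summed level of 71027 to 107931 CPM in sh-ctrl and 63606 to 72783 CPM in sh-Il22ra1. Of these 10, 5 fell, 2 rose (Slc30a8 and Ucn3) and 3 did not pass. The falls included those of the transcription factor gene Mafa (log2 fold change -1.29), the glucose transporter gene Slc2a2 (-0.93) and Iapp (-0.63), while the sum is carried by Ins2 and Iapp. Markers of other cells were low, except the glucagon gene Gcg, at 267 ± 18.1 CPM in sh-ctrl and 147 ± 5.69 CPM in sh-Il22ra1 (SD, n = 6). Of the markers of other cells that passed the filter, 2 of 2 other islet, 1 of 1 acinar, 2 of 2 ductal, 2 of 2 fibroblast and 1 of 2 leukocyte markers fell, and 0 of 2 endothelial markers did. Summed levels in sh-ctrl and sh-Il22ra1 were 243 to 295 and 145 to 158 CPM for other islet hormones and factors (6 genes, Hhex at 0), 18.5 to 27.2 and 5.83 to 9.58 CPM for leukocytes (5 genes, of which Cd68 held most), 3.03 to 6.57 and 1.22 to 1.85 CPM for fibroblasts (6 genes), 8.48 to 11.2 and 6.45 to 8.61 CPM for acinar cells (7 genes, Amy2a5 and Ptf1a at 0), and 4.41 to 6.49 and 2.47 to 3.54 CPM for ductal cells (5 genes). Endothelial markers (4 genes) summed to 3.51 to 7.77 and 5.14 to 7.54 CPM, and muscle markers (8 genes) to 0.740 to 1.99 and 0.846 to 2.54 CPM. The part of these markers in the results was not tested, and in bulk RNA fewer cells of a type and less RNA per cell cannot be told apart.

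A pair of control libraries stood apart for these genes. Replicates 1 and 4 held the 2 lowest sh-ctrl levels in 8 of the 10 members, all but Atp2b4 and Itpr2, whereas 21.3% of tested genes showed that order. The same libraries had the highest shares of unaligned reads, 16.3% and 17.3%, against 12.8% to 15.2% in the other sh-ctrl libraries and 8.71% to 11.8% in sh-Il22ra1. The fitted results of the 10 genes are therefore also given without them. The members also have long transcripts, from 4362 bases for Stim1 to 16814 bases for Ryr2, all above the median of 3128 bases over tested genes, and their values corrected for transcript length and GC content are given as well. The part of these library differences in the results was not tested.

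**Figure D1:**
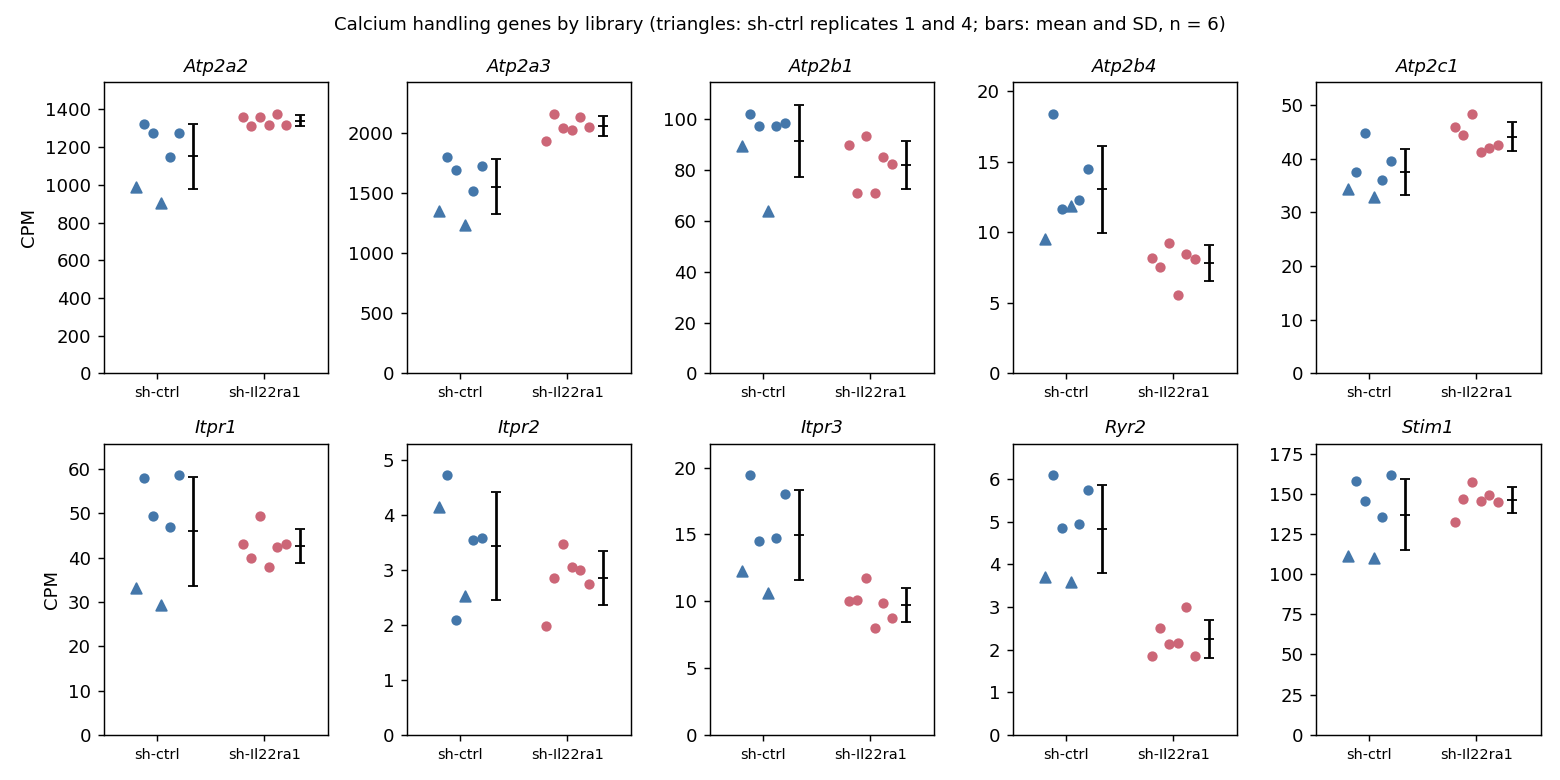
Level of each gene (CPM, linear axis from 0) in each of the 12 libraries, by group; each point is 1 library, triangles mark sh-ctrl replicates 1 and 4, and black bars give the mean and SD (n = 6). Groups are separate for Atp2a3, Atp2b4 and Ryr2 and overlap for the other 7 genes, and the triangles lie lowest among sh-ctrl points in 8 panels.

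The SERCA genes were by far the most abundant members. Compared per kilobase of transcript (RPKM, reads per kilobase per 1000000 reads), the sh-ctrl level was 337 ± 49.1 for Atp2a3 and 257 ± 38.3 for Atp2a2 (SD, n = 6), followed by Stim1 at 31.4 ± 5.12, Atp2b1 at 12.8 ± 1.98 and Atp2c1 at 6.66 ± 0.754. Below these came Itpr1 at 4.65 ± 1.25 RPKM, Itpr3 at 1.66 ± 0.373, Atp2b4 at 1.11 ± 0.262, Itpr2 at 0.294 ± 0.0847 and Ryr2 at 0.287 ± 0.0612. Neighbours in this order overlapped between libraries for Atp2a3 and Atp2a2, Atp2c1 and Itpr1, Itpr3 and Atp2b4, and Itpr2 and Ryr2. The order was the same in sh-Il22ra1, where only Itpr2 and Ryr2 still overlapped. In every one of the 10 genes the coefficient of variation was larger in sh-ctrl (11.3% to 28.8%) than in sh-Il22ra1 (2.06% to 19.6%). Over the 4 sh-ctrl libraries other than replicates 1 and 4 it was larger in 8 of 10 genes (2.32% to 31.1%), and smaller in Atp2b1 and Ryr2. The share of all tested genes with this order was not computed, so these counts are not read as particular to the 10 genes.

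**Figure D2:**
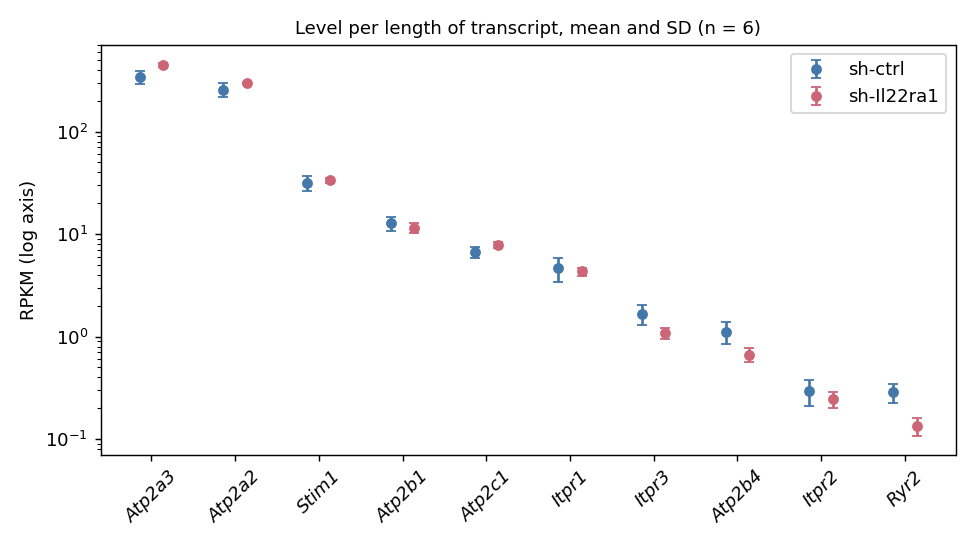
Level per length of transcript (RPKM, log axis) of the 10 genes in sh-ctrl and sh-Il22ra1; points are means and bars SD over 6 libraries. The SERCA genes Atp2a3 and Atp2a2 lie at 257 to 447 RPKM and Ryr2 at 0.134 to 0.287 RPKM.

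Atp2a3 encodes SERCA3, which shares the refilling of the ER in beta cells with SERCA2. The gene spans chr11:72961169-72993044 (GRCm38, plus strand). Its level was 1237, 1605 and 1802 CPM (lowest, median and highest) in sh-ctrl and 1936, 2047 and 2162 CPM in sh-Il22ra1. Every sh-Il22ra1 library was thus above every sh-ctrl library. The rise was 1.32-fold, a log2 fold change of 0.41 (SE 0.0821) with edgeR adjusted p = 0.000455. It was 0.27 without sh-ctrl replicates 1 and 4 (edgeR adjusted p = 0.000129) and 0.61 after the length and GC correction.

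All calcium pumps of this family pass through a state in which an aspartate carries the phosphate of ATP. The codons around it are compared here between pump genes, and this short stretch does not measure how far whole genes have diverged. The stretch is printed for Atp2a3, Atp2b1, Atp2b4 and Atp2c1, since pump genes moved in both directions. Atp2a2, which rose, was left out because only pump genes found in the RefSeq promoter table used below were taken. Atp2b1 did not pass the test, and the channel genes have no such site. Capitals mark the 15 bases of the 5 codons that start with this aspartate, and 8 codons are shown on each side, from GENCODE M21 transcripts.
Atp2a3: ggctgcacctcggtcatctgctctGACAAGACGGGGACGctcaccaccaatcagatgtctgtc
Atp2b1: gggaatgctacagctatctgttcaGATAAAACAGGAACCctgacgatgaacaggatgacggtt
Atp2b4: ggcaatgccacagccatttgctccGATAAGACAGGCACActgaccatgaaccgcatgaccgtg
Atp2c1: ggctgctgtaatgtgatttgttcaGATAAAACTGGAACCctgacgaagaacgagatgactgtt
The aspartate codon is number 351 of the coding sequence in Atp2a3, 475 in Atp2b1, 466 in Atp2b4 and 349 in Atp2c1. Over these 63 bases, the PMCA genes Atp2b1 and Atp2b4 share 49 bases, and Atp2a3 shares 36 with Atp2b1, 41 with Atp2b4 and 40 with Atp2c1. Atp2c1 shares 47 with Atp2b1 and 40 with Atp2b4. The only pair compared here within a SERCA or PMCA family was Atp2b1 and Atp2b4, so no conclusion on families is drawn. Over whole transcripts, the longest identical run between any pair of members was 44 bases, between Atp2a2 and Atp2a3.

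The region upstream of the start site is shown for Atp2a3, the member that rose with separate groups, and for Itpr3 and Ryr2, the release channel genes that fell. Each is the 250 bases before a start site from the RefSeq promoter table (GRCm38.p6), in which 8 of the 10 members were matched (all but Atp2a2 and Itpr1). Capitals mark matches on either strand to a GC box (GGGCGG) or an E box (CACGTG).
Atp2a3: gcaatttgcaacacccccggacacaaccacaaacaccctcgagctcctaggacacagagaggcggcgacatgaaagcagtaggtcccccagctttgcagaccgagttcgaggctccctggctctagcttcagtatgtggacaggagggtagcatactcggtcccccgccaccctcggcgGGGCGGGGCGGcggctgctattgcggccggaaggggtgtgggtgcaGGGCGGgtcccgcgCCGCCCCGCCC
Itpr3: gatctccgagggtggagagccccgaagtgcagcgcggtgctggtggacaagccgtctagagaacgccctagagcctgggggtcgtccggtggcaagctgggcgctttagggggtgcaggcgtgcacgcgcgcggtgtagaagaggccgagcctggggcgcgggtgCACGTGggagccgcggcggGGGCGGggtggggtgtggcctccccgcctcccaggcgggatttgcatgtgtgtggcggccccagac
Ryr2: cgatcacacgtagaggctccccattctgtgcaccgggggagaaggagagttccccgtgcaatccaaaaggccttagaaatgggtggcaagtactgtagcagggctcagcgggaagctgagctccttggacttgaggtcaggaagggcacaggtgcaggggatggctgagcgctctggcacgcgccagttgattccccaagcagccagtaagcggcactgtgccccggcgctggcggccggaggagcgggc
These are chr11:72960919-72961168 (plus strand), chr17:27057054-27057303 (plus strand) and chr13:12106946-12107195 (minus strand). GC boxes were present in 5 of the 8 member windows and in 32.7% of all 32851 windows of this length, and the E box of Itpr3 in 1 of 8 and in 6.02%. Among the 8, the start sites used for Atp2b4 and Atp2c1 lie 47294 and 6062 bases from the gene starts in GENCODE M21, and neither window held a GC box. The Ryr2 window held neither. CCAAT, searched in the same way, was present in 1 of the 8 windows, while TGACGTCA, TATAAA and the ER stress response element, whose letters include CCAAT, were in none; they occur in 33.8%, 1.55%, 12.4% and 0.113% of all windows.

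Atp2a2 encodes SERCA2, the other ER pump of these cells; the counts do not separate its splice forms. Its locus is chr5:122453513-122502225 (minus strand). Its level was 904, 1209.6 and 1324 CPM in sh-ctrl (lowest, median and highest) and 1310.0, 1338 and 1378 CPM in sh-Il22ra1. Only the highest sh-ctrl library, replicate 2, reached the sh-Il22ra1 range. This gave a log2 fold change of 0.22 (SE 0.0818), with edgeR adjusted p = 0.0315. The call ended without sh-ctrl replicates 1 and 4 (0.08, edgeR adjusted p = 0.190) and in 7 of 12 fits that left out 1 library (edgeR adjusted p up to 0.0715), namely sh-ctrl replicate 1, 4 or 5 or sh-Il22ra1 replicate 1, 3, 5 or 6. After the length and GC correction it was 0.31 (edgeR adjusted p = 1.31e-05). As a share of SERCA transcripts per length, Atp2a3 made up 56.3% to 57.1% in sh-ctrl and 58.2% to 61.6% in sh-Il22ra1, ranges that do not overlap. How often paralog shares separate in this way over all genes was not computed, here or for the shares below.

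Atp2c1 encodes SPCA1, the pump that brings calcium and manganese into the Golgi. At its locus, chr9:105403539-105527319 (minus strand), 18.9% of the exon bases are shared with Aste1, so some reads cannot be assigned with certainty. Its level was 32.9, 36.9 and 44.8 CPM in sh-ctrl (lowest, median and highest) and 41.2, 43.5 and 48.4 CPM in sh-Il22ra1. Among sh-ctrl libraries, replicate 3 lay within the sh-Il22ra1 range and the other 5 lay below it. In the fit, its log2 fold change was 0.23 (SE 0.0757, edgeR adjusted p = 0.0160). Without sh-ctrl replicates 1 and 4 it was 0.14 and no longer passed (edgeR adjusted p = 0.0853), and after the length and GC correction it was 0.38 (edgeR adjusted p = 9.36e-05).

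Of the plasma-membrane pumps, Atp2b4 fell and Atp2b1 did not pass. Atp2b4 (chr1:133699457-133801041, minus strand) encodes PMCA4. Its level was 9.54, 12.1 and 18.4 CPM in sh-ctrl (lowest, median and highest) and 5.53, 8.12 and 9.21 CPM in sh-Il22ra1, from 85 to 284 reads per library. The highest sh-Il22ra1 library was just below the lowest sh-ctrl library. Its log2 fold change was -0.74 (SE 0.146, edgeR adjusted p = 0.000365), with -0.88 without sh-ctrl replicates 1 and 4 and -0.50 after the length and GC correction.

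Atp2b1 encodes PMCA1, the PMCA pump with the highest level here. The gene spans chr10:98914406-99026143 (plus strand). Its level was 63.8, 97.3 and 102 CPM in sh-ctrl (lowest, median and highest) and 70.8, 83.6 and 93.2 CPM in sh-Il22ra1. The groups overlapped through sh-ctrl replicates 1 (89.6 CPM) and 4 (63.8 CPM), while the other 4 sh-ctrl libraries were above all sh-Il22ra1 libraries. The log2 fold change of -0.16 (SE 0.0993) did not pass (edgeR adjusted p = 0.194). It passed downward without sh-ctrl replicate 4 (-0.25, edgeR adjusted p = 0.00478) and without replicates 1 and 4 (-0.28, edgeR adjusted p = 0.000776), and was 0.03 after the length and GC correction. Atp2b2, another PMCA gene, not among the 10, averaged 37.8 ± 6.61 CPM in sh-ctrl and 41.2 ± 4.43 CPM in sh-Il22ra1 (SD, n = 6). Per length, Atp2b4 made up 4.83% to 7.53% of Atp2b1, Atp2b2 and Atp2b4 together in sh-ctrl and 3.20% to 4.29% in sh-Il22ra1. With lengths from the union of exon bases, this share was 8.56% to 12.7% and 5.54% to 7.51%.

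The 4 release channel genes were all at low to moderate levels, and 2 of them fell. Ryr2 encodes the ryanodine receptor best known from heart muscle, which is also found in beta cells. Its locus is chr13:11553102-12106945 (minus strand). Its level was 3.59, 4.89 and 6.09 CPM in sh-ctrl (lowest, median and highest) and 1.85, 2.14 and 3.00 CPM in sh-Il22ra1. The groups did not overlap, although they rest on 47 to 94 reads per sh-ctrl library and 27 to 46 per sh-Il22ra1 library. The fall was 2.15-fold, a log2 fold change of -1.10 (SE 0.171, edgeR adjusted p = 3.09e-05). It was -1.28 without sh-ctrl replicates 1 and 4 and -0.83 after the length and GC correction.

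Itpr3 (chr17:27057304-27122223, plus strand) encodes a type of IP3 receptor. Its level was 10.6, 14.6 and 19.5 CPM in sh-ctrl (lowest, median and highest) and 8.0, 9.95 and 11.7 CPM in sh-Il22ra1. Only sh-ctrl replicate 4, the lowest of its group, fell inside the sh-Il22ra1 range. The log2 fold change was -0.62 (SE 0.135), with edgeR adjusted p = 0.000879. Without sh-ctrl replicates 1 and 4 it was -0.79, and after the length and GC correction it was -0.27 and still passed (edgeR adjusted p = 0.0118), a value moved by over 1.5 times.

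Itpr1, the most abundant release channel gene, did not pass. The gene spans chr6:108213096-108551109 (plus strand). Its level was 29.3, 48.2 and 58.7 CPM in sh-ctrl (lowest, median and highest) and 37.8, 42.8 and 49.3 CPM in sh-Il22ra1. The sh-ctrl libraries lay on both sides of the other group, with replicates 4 (29.3 CPM) and 1 (33.1 CPM) below it and replicates 2 (58.1 CPM), 3 (49.5 CPM) and 6 (58.7 CPM) above it. Its log2 fold change was -0.11 (SE 0.138, edgeR adjusted p = 0.518). It was -0.34 and passed without sh-ctrl replicates 1 and 4 (edgeR adjusted p = 0.000365), and was 0.13 after the length and GC correction (edgeR adjusted p = 0.111).

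Itpr2 was the rarest IP3 receptor gene, with 29 to 73 reads per library. Its locus is chr6:146108299-146502223 (minus strand). Its level was 2.09, 3.56 and 4.73 CPM in sh-ctrl (lowest, median and highest) and 1.99, 2.92 and 3.48 CPM in sh-Il22ra1, with wide overlap. The log2 fold change of -0.27 had an SE of 0.192 and did not pass (edgeR adjusted p = 0.250). It was -0.30 without sh-ctrl replicates 1 and 4 (edgeR adjusted p = 0.190) and -0.02 after the length and GC correction (edgeR adjusted p = 0.944). Per length, Itpr1 made up 66.1% to 73.6% of IP3 receptor transcripts in sh-ctrl and 74.7% to 78.3% in sh-Il22ra1, and Itpr3 made up 23.8% to 27.0% and 17.5% to 20.8%. The ranges of both shares did not overlap between groups, with sh-ctrl replicates 1 and 4 or without them (69.6% to 73.6% for Itpr1 and 23.8% to 25.6% for Itpr3 in the other 4). Those of the Itpr2 share overlapped (2.62% to 7.02% and 3.01% to 5.26%). Because the Itpr2 share is small, the Itpr1 and Itpr3 shares nearly mirror each other and are not separate results.

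Stim1 (chr7:102267806-102437319, plus strand) encodes the ER calcium sensor. Its level was 110.3, 141 and 162 CPM in sh-ctrl (lowest, median and highest) and 132, 146 and 157 CPM in sh-Il22ra1. The sh-ctrl range enclosed the sh-Il22ra1 range. Its log2 fold change was 0.09 (SE 0.0880, edgeR adjusted p = 0.407), and was -0.06 without sh-ctrl replicates 1 and 4. It passed upward after the length and GC correction (0.23, edgeR adjusted p = 0.00210). Its paralog Stim2, which is not among the 10, averaged 58.1 ± 3.40 CPM in sh-ctrl and 58.0 ± 5.29 CPM in sh-Il22ra1 (SD, n = 6).

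**Figure D3:**
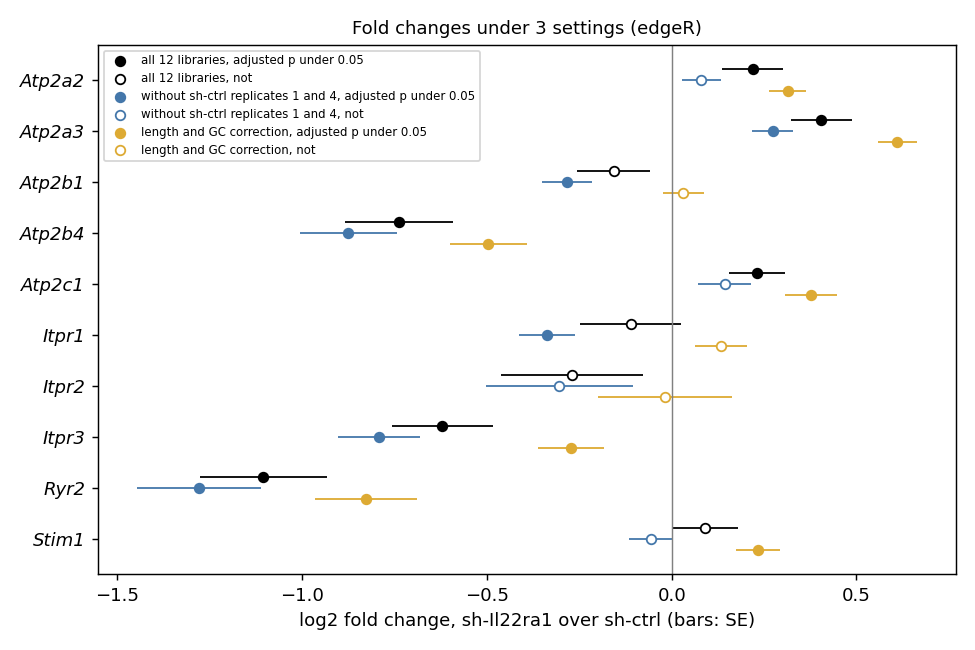
Log2 fold change of sh-Il22ra1 over sh-ctrl for the 10 genes (edgeR; bars are SE), from all 12 libraries, without sh-ctrl replicates 1 and 4, and after the length and GC correction; filled points have adjusted p under 0.05. Atp2a3 stays above 0 and Atp2b4, Itpr3 and Ryr2 stay below 0 with filled points in all 3 settings, and Atp2b1, Itpr1 and Stim1 lie on both sides of 0.

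Both settings shifted all 10 genes, in opposite directions. Leaving out sh-ctrl replicates 1 and 4 lowered every log2 fold change, by 0.0356 to 0.227, and left 1 member higher (Atp2a3) and 5 lower (Atp2b1 and Itpr1 in addition), where 59.8% of tested genes passed, 28.5% higher and 31.3% lower. This pair was picked because it held the 2 lowest sh-ctrl levels in 8 of the 10 members. A downward shift in those 8 was thus largely fixed by the choice, also for the falls of Itpr3 and Ryr2. The length and GC correction raised every log2 fold change, by 0.0949 to 0.347, and gave 4 members higher (Stim1 in addition) and 3 lower, where 58.6% of tested genes passed, 33.3% higher and 25.3% lower. The rise of Atp2a3 and the falls of Atp2b4, Itpr3 and Ryr2 passed in each of the 23 alternative fits.

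**Figure D4:**
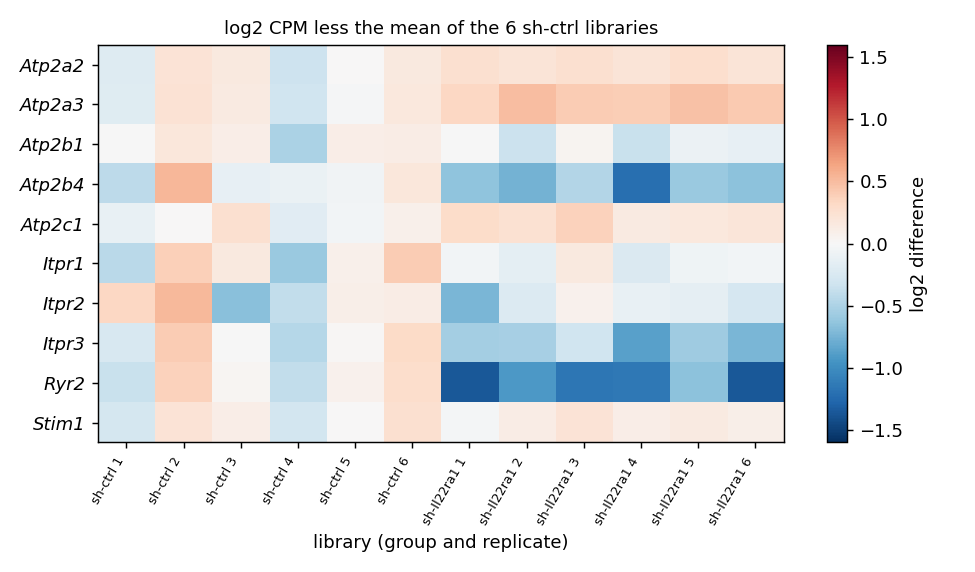
Difference in log2 CPM from the mean of the 6 sh-ctrl libraries for each gene (rows) in each library (columns); red is higher and blue lower. In Ryr2 all 6 sh-Il22ra1 libraries lie at -0.66 or below, in Atp2a3 at 0.33 or above, and sh-ctrl replicates 1 and 4 are blue in most rows.

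The other calcium genes, in 8 lists of 145 symbols drawn up by function (141 found, 119 tested), had 30 higher, 42 lower and 47 not past the threshold. Higher calls made up 25.2% and lower calls 35.3% of the 119, beside 25.4% and 26.5% of all tested genes, so the counts of single lists are read as descriptions. Without sh-ctrl replicates 1 and 4 these counts were 32 higher and 50 lower, and after the length and GC correction they were 38 higher and 42 lower. Sodium-calcium exchangers, which remove calcium at the plasma membrane beside the PMCA pumps, fell: Slc8a1 went from 52.5 ± 9.27 CPM in sh-ctrl to 36.0 ± 2.95 CPM in sh-Il22ra1 (SD, n = 6; log2 fold change -0.54), Slc8a2 changed by -0.62 and Slc8a3 by -1.69. Slc8a3 was rare, at 2.31 ± 0.473 CPM in sh-ctrl and 0.711 ± 0.349 CPM in sh-Il22ra1 (SD, n = 6). It had 27 to 47 reads per sh-ctrl library and 4 to 17 per sh-Il22ra1 library. Among the 7 tested other pumps and exchangers, 1 rose, 4 fell and 2 did not pass, at a median of -0.51. The 4 that fell were all exchangers, and the PMCA gene Atp2b2 did not pass (log2 fold change 0.12, edgeR adjusted p = 0.335). Of 6 tested partners of the pumps, 4 were higher, none lower and 2 not past the threshold, at a median of 0.29. They included Nptn (0.34), the neuroplastin subunit of PMCA pumps, Vmp1 (0.39), an ER membrane protein that acts on SERCA, and Tmx1 (0.39), an ER thioredoxin that binds SERCA2. These medians are log2 fold changes. Each gene named as higher or lower in these 8 lists, except Orai3, had an edgeR adjusted p of at most 0.00132.

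Among 19 tested genes of other release channels and their partners, 8 fell, 1 rose and 10 did not pass, at a median log2 fold change of -0.11. Fkbp1a, an immunophilin that binds ryanodine receptors, went from 341 ± 27.6 CPM in sh-ctrl to 151 ± 7.99 CPM in sh-Il22ra1 (SD, n = 6; log2 fold change -1.17), and its paralog Fkbp1b fell by 0.72 on the log2 scale. Ryr3, another ryanodine receptor, fell too (-1.34), from 1.36 ± 0.289 CPM in sh-ctrl to 0.531 ± 0.149 CPM in sh-Il22ra1 (SD, n = 6). Ryr1 did not pass the filter, with 26 reads in sh-ctrl and 34 in sh-Il22ra1, summed over libraries.

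In store-operated entry, the ORAI channel genes that Stim1 acts on went apart, with Orai2 and Orai3 higher and Orai1 lower. Orai3 had a log2 fold change of 0.20 (edgeR adjusted p = 0.0263). Orai2 rose from 70.2 ± 8.13 CPM in sh-ctrl to 91.7 ± 8.78 CPM in sh-Il22ra1 (SD, n = 6; log2 fold change 0.38), and Orai1 fell from 22.4 ± 1.67 CPM in sh-ctrl to 17.4 ± 1.78 CPM in sh-Il22ra1 (SD, n = 6; -0.36). Trpc1, a cation channel linked to store depletion, fell as well (-0.90). Of the 12 genes tested for this process, 5 rose and 2 fell, with 5 not past the threshold and a median of 0.18.

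Calcium-binding, channel and leak proteins of the secretory pathway had 5 of 21 members higher, 9 lower and 7 not past the threshold (median log2 fold change -0.08). Nucb1, a calcium-binding protein of the Golgi, fell from 363 ± 19.2 CPM in sh-ctrl to 209 ± 10.9 CPM in sh-Il22ra1 (SD, n = 6; -0.80), Sepn1, the gene of the ER selenoprotein N, fell by 1.22 on the log2 scale and Calu, calumenin, by 0.53. Of 13 genes tied to mitochondrial calcium, not all of them uptake genes, 4 rose, 3 fell and 6 did not pass (median 0.08). The uniporter pore gene Mcu fell (-0.47), whereas Letm1, an inner-membrane cation exchanger gene, rose by 0.30 on the log2 scale.

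Genes that form and degrade IP3, the ligand of the Itpr channels, were split, with 5 of 17 higher, 5 lower and 7 not past the threshold (median log2 fold change -0.0014). Plcg2, a phospholipase C, fell (-1.06), as did Itpkb (-0.49), a kinase that converts IP3, while the inositol phosphatase gene Inpp1 rose (0.61). Of 24 cytosolic calcium sensors and their targets, 5 rose, 11 fell and 8 did not pass (median -0.13). Nfatc3, a transcription factor activated by calcineurin, went from 50.7 ± 9.14 CPM in sh-ctrl to 16.0 ± 1.66 CPM in sh-Il22ra1 (SD, n = 6; -1.66), and the calmodulin-dependent kinase genes Camkk1 (-0.85) and Camk2b (-0.41) fell.

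The same settings as for the members moved the lists unevenly. The median log2 fold change of other pumps and exchangers was -0.55 without sh-ctrl replicates 1 and 4 and -0.26 after the length and GC correction, and that of pump partners was 0.34 and 0.30. For release channels and partners the values were -0.17 and -0.04, and for store-operated entry 0.12 and 0.18. Calcium-binding, channel and leak proteins of the secretory pathway had -0.13 and -0.15. Mitochondrial calcium genes had 0.13 and -0.0060, IP3 genes -0.06 and 0.11, and cytosolic sensors -0.15 and -0.17, so the sign of the median turned for the mitochondrial and IP3 lists. Among the genes named from the lists, the length and GC correction moved Slc8a1 to -0.26, Slc8a2 to -0.36, Itpkb to -0.23, Camk2b to -0.27 and Letm1 to 0.45, each by over 1.5 times, and all 5 still passed.

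**Figure D5:**
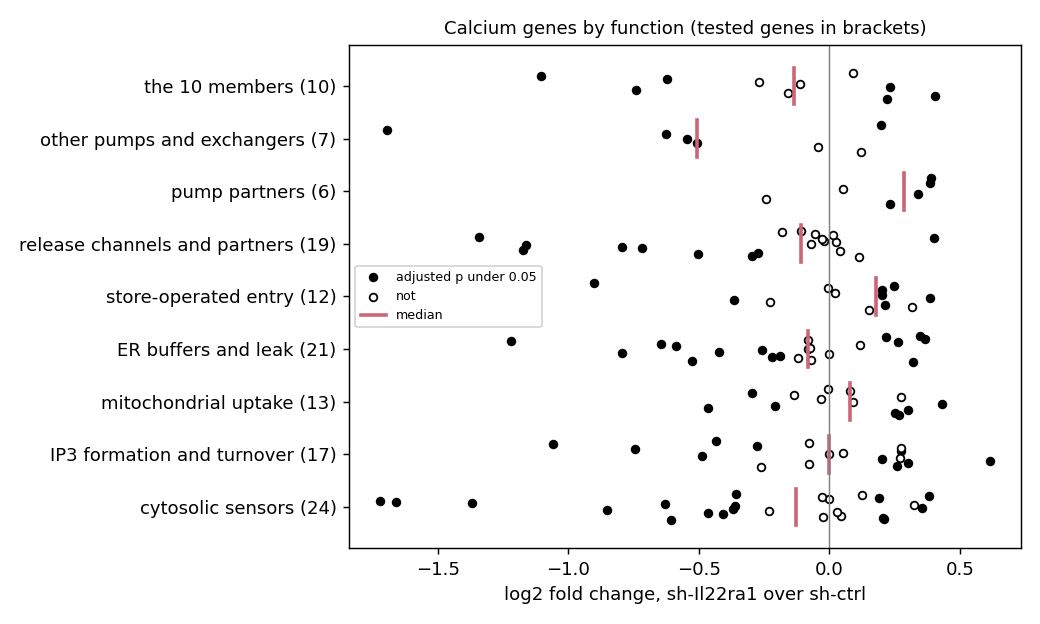
Log2 fold change of each tested gene in the 10 members and the 8 lists of other calcium genes, with the number tested in brackets; filled points have edgeR adjusted p under 0.05 and red bars are medians. Pump partners lie mostly above 0 (median 0.29) and other pumps and exchangers mostly below (median -0.51).

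Genes with the profile most like that of a member were sought for the 3 members with the smallest p, as the smallest root-mean-square difference in centred log2 CPM over the 12 libraries. For Ryr2 these were Mxd4 (0.135), Xpo7 (0.135) and Ppm1l (0.147), and for Atp2b4 they were Syt2 (0.147), Arhgef5 (0.161) and Trim44 (0.164). For Atp2a3 they were Tbc1d16 (0.0456), Nisch (0.0475) and Nsf (0.0564), in log2 units. None of these 9 genes is a member or in a calcium list. Members and list genes are few among the 10292 genes compared, so no conclusion is drawn from this.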

How the data were processed

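Total RNA of 12 Min6 samples was sequenced as paired ends. Groups and replicate numbers come from the titles; in sh-Il22ra1 replicates 2 to 6 the treatment label counts the number in the gene name upward, and the title was followed. The authors' deposited files hold whole-number read counts per gene symbol; HISAT2 2.0.5, HTSeq and mm10 are named in the submitters' processing notes, and the annotation and strand setting were not given in the sources used here. Rows of reads not assigned to genes (23.5% to 31.7% of a file) were left out. A table of the whole series holds the same counts scaled per library and was not used.

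Counts were tested in R 4.3.3 with edgeR 4.0.16: filterByExpr (minimum count 10, minimum total 15), TMM scaling, glmQLFit and glmQLFTest (two-sided), and Benjamini-Hochberg adjustment over 13102 genes at 0.05. The script was tested on simulated data. SE is the size of the log2 fold change divided by the square root of F. Transcript lengths, GC content and positions come from GENCODE M21 (GRCm38, the build of mm10), using the longest coding transcript. Of 24421 symbols, 23376 matched by symbol and 657 by synonym. The correction for length and GC content uses splines (4 degrees of freedom each) fitted in each library. Alternatives were RLE and upper-quartile scaling, DESeq2 1.42.0, limma-voom (limma 3.58.1), other filters, a replicate block, leaving out libraries, and scaling without Ins2, Iapp and Rn45s. Il22ra1 and 3 untested paralogs were compared with scipy 1.17.1. Members and lists were chosen with earlier results of these data known. Named genes are the members, Il22ra1 and Cyb5r3, up to 3 called genes of each list by smallest p, and genes of like profile at a mean of at least 5 CPM. Atp2b2, Orai3, Stim2, Ryr1, Gcg and the beta-cell markers named were added after their values were seen. One gene that this rule names is not reported here. Replicate numbers are not said to pair samples.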

Additional observations from a re-analysis of the deposited data

Results flagged for a closer look

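Atp2b1 in sh-ctrl replicate 4 was at 63.8 CPM, far from the next lowest sh-ctrl library at 89.6 CPM: this gap was 0.672 of the range of the group, above the limit of 0.625 for 6 libraries. Of the 20 sets of 6 libraries examined (10 genes in each group) this was the only one past the limit, and chance gives about 1 in 20.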

How the results depend on the processing

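Over 23 alternatives for the 10 genes, 211 of 230 fitted values kept direction and side of the threshold, 9 lost a call, 5 gained one and 5 changed sign; all 781 values of the other 34 named genes kept both. Without sh-ctrl replicates 1 and 4, 1 member was higher and 5 were lower, and Stim1 changed sign to -0.0564. The downward direction of these changes was largely fixed by the choice of a pair with low levels in these genes. After the length and GC correction, Atp2b1 (0.0312) and Itpr1 (0.13) changed sign, and so they did with the replicate block added to it (0.0323 and 0.14), a fit chosen after seeing the data. These causes were not tested. The replicate block alone left 3 members higher and 3 lower and changed no call of a member; same-numbered libraries correlated at -0.0328 to 0.229, and only number 4 correlated best with its own number, so the numbers were not taken to pair samples. Leaving out 1 library at a time gave 2 to 3 members higher, 3 to 4 lower, 2881 to 3521 genes higher, 3239 to 3970 genes lower, and 25 to 32 higher and 39 to 45 lower among the other calcium genes. Lengths from the union of exon bases moved the Atp2a3 share of SERCA transcripts to 60.9% in sh-ctrl and 63.9% in sh-Il22ra1 (from 56.8% and 59.9%), and the Itpr1 share of IP3 receptor transcripts to 56.7% and 64.7% (from 70.1% and 76.5%), the Itpr3 share to 37.9% and 30.0% (from 25.3% and 19.2%), and the Atp2b4 share of PMCA transcripts to 10.6% and 6.86% (from 6.13% and 3.96%), because the annotated exons are longer than the transcript used. Ryr2 and Itpr2 rest on the fewest reads of the 10 genes, 27 to 94 per library. The coefficients of variation and shares without sh-ctrl replicates 1 and 4 were computed after seeing the data.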
